A study of Arabidopsis thaliana with 8 samples.

Results

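The genes described here are 7 lipid transfer protein and lipid transfer protein-like genes of *Arabidopsis thaliana*, AT3G58550, AT2G18370, AT2G48130, AT4G12490, AT4G12500, AT4G22470 and AT5G48490. They were taken from 13286 genes that have an array probe set of their own, and they were chosen by their measured zinc effects in wild type and in dez on these same arrays. Transcripts were measured in whole seedlings, 7 days old and grown in the dark, on Affymetrix ATH1 arrays, where each gene is read by a set of short probes. Wild type and the mutant dez were raised at 1 µM zinc (control medium) or at 100 µM (high zinc). About 45 seedlings were pooled per biological replicate, with 2 replicates for each of 4 groups, and the small number of 8 arrays limits the precision. The mutation of dez is known to lie in TRICHOME BIREFRINGENCE, of a family linked to the acetylation of wall polysaccharides. The labels name a single dez genotype and no complemented line. RNA of whole seedlings cannot tell fewer cells of a type apart from less RNA per cell.

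Lipid transfer proteins are small secreted proteins with a conserved set of cysteines that fold into a cavity for fatty acids and other lipids. Some are held at the outer face of the plasma membrane by a glycosylphosphatidylinositol anchor and are known for the export of cutin, wax and suberin monomers to the cell wall. Others, among them the proline-rich AZI1 and EARLI1 group and DIR1, are known for priming and long-distance signalling in plant defence. AT3G58550 and AT2G48130 belong to the anchored class, and AT2G48130 is LTPG15, which takes part in suberin deposition. AT2G18370 is a classical type 1 lipid transfer protein. AT4G12490 and AT4G12500 are AZI1 relatives that lie close together, with 1 protein-coding gene between them in the RefSeq annotation, and AT4G22470 is another proline-rich protein with a lipid transfer domain. AT5G48490 is a close relative of DIR1 and its direct neighbour in the genome. Every value below comes from 1 probe set per gene, and all 7 genes had exactly 1 that names them alone.

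The 7 genes fell into 3 patterns. AT3G58550, AT2G18370 and AT2G48130 were highest in wild type on high zinc. AT4G12490, AT4G12500 and AT4G22470 were highest in dez on high zinc. AT5G48490 was lowest in dez on high zinc and highest in wild type on high zinc. These directions are those the genes were chosen for, so the zinc values of the 7 genes are given as a description, with log2 differences of (intensity + 16), their limma standard errors (SE) and no test.

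**Figure D1:**
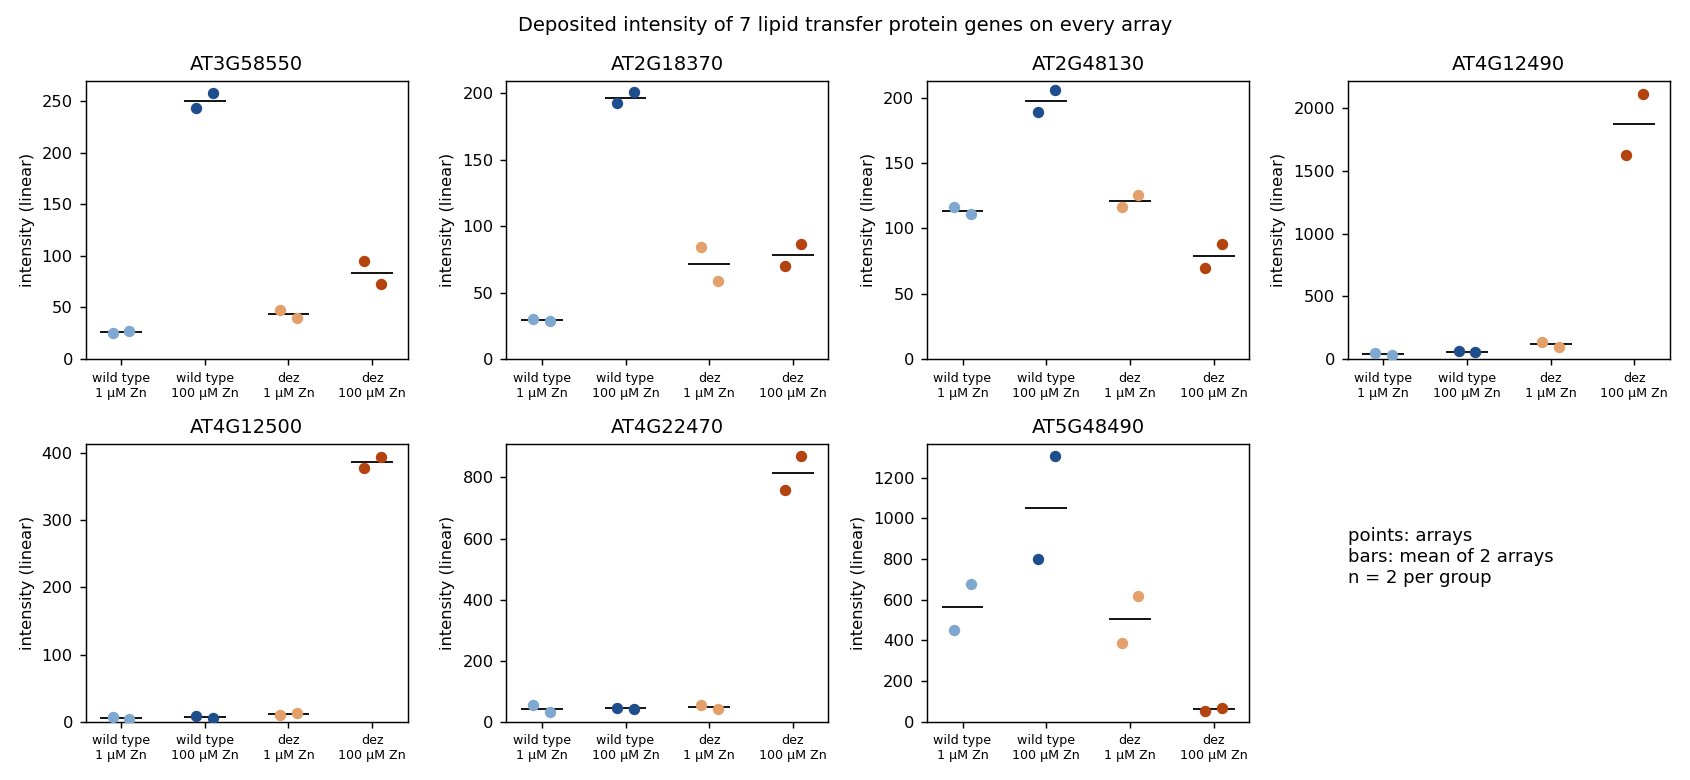
Deposited intensity (linear scale, from 0) of the 7 genes on every array. Points are single arrays, coloured by group, and bars are means of 2 arrays; AT4G12500 lies at 12.4 or below on 6 arrays and at 378.0 and 394.6 on the 2 arrays of dez on high zinc.

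Among the genes that were higher with zinc in wild type, AT3G58550 had intensities of 25.3 and 27.6 in wild type on control medium and reached 243.1 and 257.6 on high zinc. In dez it lay at 47.7 and 39.3 on control medium and at 95.0 and 72.5 on high zinc. All 4 groups were apart, in the order wild type on control medium, dez on control medium, dez on high zinc and wild type on high zinc. The mean was 9.47 times higher with zinc in wild type and 1.93 times higher in dez, or 2.65 ± 0.13 and 0.74 ± 0.13 (SE, 2 arrays per group) on the log2 scale. The interaction, the zinc effect in dez minus that in wild type, was -1.91 ± 0.19.

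AT2G18370 had intensities of 30.3 and 29.0 in wild type on control medium and reached 192.9 and 200.7 on high zinc. In dez it lay at 84.4 and 58.5 on control medium and at 70.3 and 86.8 on high zinc. Thus dez on control medium was already above wild type, and its values overlapped with those of dez on high zinc. The zinc difference was 2.22 ± 0.15 in wild type and 0.12 ± 0.15 in dez, and the latter was -0.09 without dez control replicate 2. The interaction was -2.10 ± 0.21.

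AT2G48130 moved less. Its intensities in wild type were 116.0 and 111.2 on control medium and 188.7 and 205.9 on high zinc. In dez they were 116.5 and 125.2 at the control level of zinc and 69.8 and 88.3 at the high level. Zinc thus went with a higher value in wild type and a lower one in dez, with no overlap of arrays in either genotype. The differences were 0.72 ± 0.12 and -0.53 ± 0.12. The difference in dez was -0.12 when arrays were scaled to spiked poly-A controls instead of used as deposited.

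Of the genes that were higher with zinc in dez, AT4G12490 was also above wild type in dez without high zinc. It lay at 44.8 and 29.1 in wild type on control medium and at 65.1 and 54.7 with high zinc. In dez the intensities were 136.3 and 96.3 on control medium and 1631 and 2115 with high zinc. No 2 groups overlapped. The zinc difference was 3.84 ± 0.19 in dez and 0.53 ± 0.19 in wild type. On the linear scale, without the added 16, the mean in dez was 16.1 times higher with zinc.

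AT4G12500, its near neighbour, had intensities of 7.46 and 4.25 in the wild-type controls and 8.64 and 6.29 with high zinc. In dez it lay at 9.54 and 12.4 on control medium and at 378.0 and 394.6 on high zinc. The mean of the 6 arrays outside dez on high zinc was 8.10, below the lowest mean intensity kept for testing, 22.5, so this gene entered the fit only through dez on high zinc. No background level is given in the sources used here, and its low values therefore say only that it was dim. The zinc difference in dez was 3.90 ± 0.11, and since the pseudocount compresses dim values it was 5.02 with a pseudocount of 1. In wild type it was 0.10 ± 0.11, with overlapping arrays.

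AT4G22470 lay at 54.1 and 32.5 in wild type on control medium, at 44.6 and 42.5 with high zinc, and at 55.2 and 42.3 in the dez controls. With high zinc dez reached 760.0 and 868.5, above all other arrays, while the other 3 groups overlapped with each other. The zinc difference was 3.68 ± 0.17 in dez and 0.03 ± 0.17 in wild type. The interactions of the 3 genes were 3.31 ± 0.27 for AT4G12490, 3.79 ± 0.16 for AT4G12500 and 3.65 ± 0.24 for AT4G22470.

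AT5G48490 went the other way. It had intensities of 450.9 and 677.2 in wild type on control medium and reached 801.3 and 1304 on high zinc. In dez it lay at 387.7 and 620.2 on control medium and at 52.8 and 69.2 on high zinc. The 2 control groups overlapped, wild type on high zinc lay above both, and dez on high zinc lay below all other arrays. Its replicates were spread, with SDs of 160.0 and 355.3 in wild type on control medium and high zinc (n = 2). In dez on control medium the SD was 164.4 (n = 2), and the SE of this gene was the largest of the 7. The zinc difference was 0.87 ± 0.27 in wild type and -2.73 ± 0.27 in dez, which is a mean 8.26 times lower in dez.

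Arrays that did not overlap between the media were common. With zinc in wild type 5 of the 7 genes lay wholly higher and none lower, against 21.2% and 16.7% of all tested probe sets, and in dez 4 lay higher and 2 lower, against 36.4% and 35.3%. Since the zinc effects chose the genes, nothing is read from these counts.

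**Figure D2:**
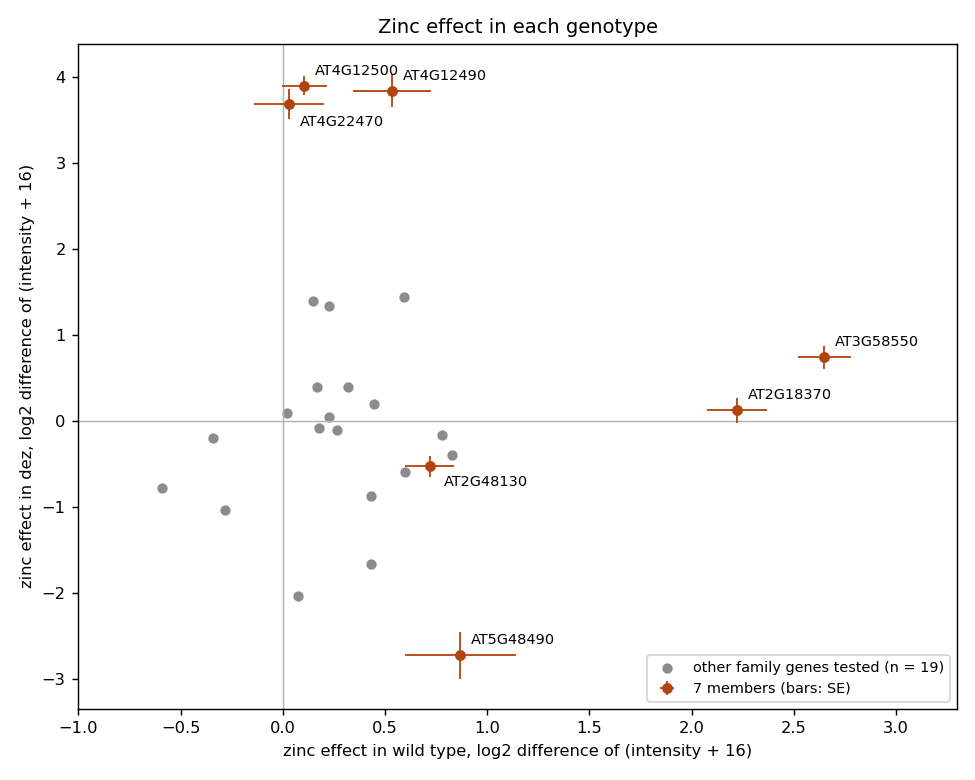
Zinc effect in wild type (x axis) against zinc effect in dez (y axis), both as log2 differences of (intensity + 16), for the 7 genes (red, bars are SE) and 19 other tested family genes (grey). AT3G58550 and AT2G18370 lie to the right at 2.65 and 2.22, the 3 proline-rich genes at the top between 3.68 and 3.90, and AT5G48490 at the bottom at -2.73.

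On high zinc the genotypes were apart for all 7 genes, 3 higher and 4 lower in dez, against 37.8% and 33.9% of all tested probe sets that lay wholly higher or lower, and again nothing is read from the count. AT4G12490, AT4G12500 and AT4G22470 were higher in dez, with log2 differences of 4.63 ± 0.19, 4.10 ± 0.11 and 3.80 ± 0.17. The other 4 were lower, AT5G48490 by -3.76 ± 0.27, AT3G58550 by -1.43 ± 0.13, AT2G18370 by -1.18 ± 0.15 and AT2G48130 by -1.17 ± 0.12. With arrays scaled to the poly-A spikes the values of AT3G58550, AT2G18370 and AT2G48130 were -0.61, -0.36 and -0.36, each with an SE of 0.36.

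The comparison of dez with wild type on control medium was not itself used to choose the genes, and it was tested. It shares its arrays with both zinc comparisons, so its tests are not independent of the choice. Choosing a gene for a rise with zinc in wild type favours low wild-type controls and so a higher difference here. Choosing a gene for a rise in dez favours low dez controls and so a lower difference. AT4G12500, which entered the fit only through dez on high zinc, is given here as a value with no test. Of the other 6 genes 3 were higher in dez and none was lower. Over all tested probe sets 9.67% were called in either direction, 4.24% higher and 5.43% lower. Without regard to the test, 4 of these 6 genes lay wholly higher and none wholly lower, against 31.7% and 26% of all tested probe sets. For AT4G12490 the log2 difference was 1.32 ± 0.19 (SE; limma, adjusted p = 0.0023), a mean of 116.3 ± 28.2 (SD, n = 2) against 36.9 ± 11.1. AT2G18370 was higher by 0.92 ± 0.15 (adjusted p = 0.00388), a mean of 71.5 ± 18.3 against 29.6 ± 0.96. Both stayed past the threshold in each of 20 alternative settings, with adjusted p up to 0.0215 and 0.0353. AT3G58550 was higher by 0.48 ± 0.13 (adjusted p = 0.0439), and this call was lost in 10 of 20 settings. Among those were the fits without wild-type control replicate 1 (adjusted p = 0.141) or 2 (0.107) and without dez control replicate 1 (0.269) or 2 (0.125). Over all 20 settings its adjusted p lay between 0.0238 and 0.269. AT4G22470 (0.14 ± 0.17), AT2G48130 (0.08 ± 0.12) and AT5G48490 (-0.17 ± 0.27) did not pass. The value of AT4G12500 was 0.31 ± 0.11, at intensities between 4.25 and 12.4.

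**Figure D3:**
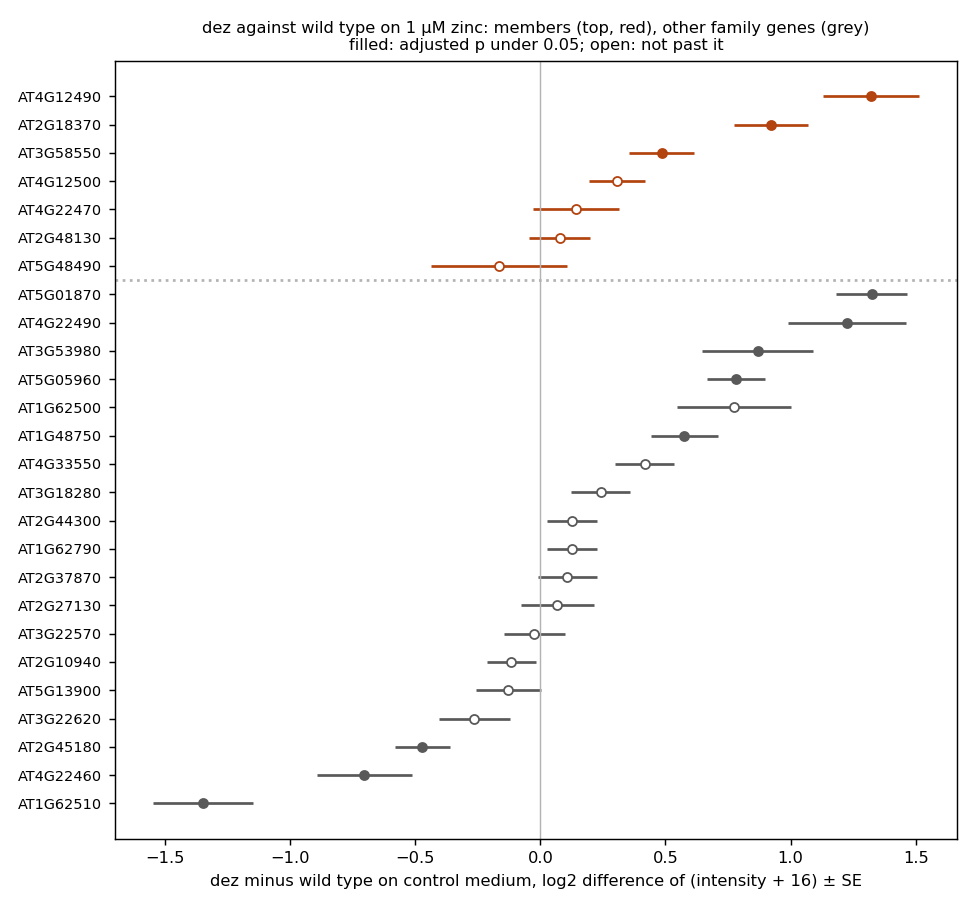
Difference of dez from wild type on control medium, as log2 of (intensity + 16) with SE bars, for the 7 genes (top, red) and the 19 other tested family genes (grey). Filled points passed the limma adjusted p of 0.05, and AT4G12500 is shown for its value alone; AT4G12490 lies at 1.32, AT2G18370 at 0.92 and AT1G62510 at -1.35.

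A list of 102 other genes of the lipid transfer protein family was examined in the same fit, of which 41 had a probe set of their own and 19 were bright enough to be tested. Since the 7 genes were chosen for large zinc changes, this remainder lacks them by construction and its direction is not independent of that choice. With zinc in wild type 1 of the 19 rose and none fell, against 0.725% of all tested probe sets (0.469% higher and 0.256% lower), and the median was 0.23 against 0.004 over all. The 1 was AT5G13900, of the anchored class, with 46.6 and 48.1 on control medium and 81.6 and 104.8 on high zinc, a change of 0.78 ± 0.13 (adjusted p = 0.022). That call was lost with any of 5 arrays left out, wild-type control replicate 1 (0.0779) or 2 (0.117), wild-type high-Zn replicate 2 (0.116) and dez high-Zn replicate 1 (0.0554) or 2 (0.0552).

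With zinc in dez 5 of the 19 rose and 6 fell, against 34.2% of all tested probe sets (16.8% higher and 17.4% lower), and the median was -0.11 against 0.01 over all. AT5G01870, a type 1 protein like AT2G18370, rose from a mean of 347.8 ± 11.2 to 978.3 ± 118.5 (SD, n = 2), by 1.45 ± 0.14 (adjusted p = 3.51e-05). AT1G62790, of the anchored class, rose by 1.40 ± 0.10, and AT3G18280, of the smaller type 2 class, by 1.34 ± 0.12. These rises and the falls of AT2G10940 and AT1G62500 stayed past the threshold in all 20 settings run for each.

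The other genes of the proline-rich group did not share the direction of AT4G12490, AT4G12500 and AT4G22470. Of the 6 tested, 5 fell with zinc in dez and none rose, against 17.4% of all tested probe sets that fell, with a group median of -0.96 against 0.01 over all. The 3 genes that were higher are not in this group because they were chosen as members. AT2G10940 fell from 2468 and 2641 to 604.4 and 611.6, a change of -2.04 ± 0.10 (adjusted p = 4.00e-07). AT1G62500 changed by -1.67 ± 0.23 (adjusted p = 3.05e-04). AT2G45180, known as the defence-related lipid transfer protein DRN1, changed by -1.04 ± 0.11, and its call was lost under poly-A spike scaling (adjusted p = 0.284). AT4G22460 and AT4G22490, which lie on either side of AT4G22470 with 2 protein-coding genes in each gap, changed by -0.78 ± 0.19 and -0.87 ± 0.24. Under the same scaling AT2G10940 and AT1G62500 stayed past the threshold. There AT4G22460 and AT4G22490 were -0.37 and -0.46 and lost their calls (adjusted p = 0.487 and 0.404). Their calls were lost without 1 array, AT4G22460 without dez control replicate 2 (adjusted p = 0.0506) or dez high-Zn replicate 2 (0.0921), and AT4G22490 without dez control replicate 1 (0.13) or dez high-Zn replicate 2 (0.139). AT4G12530, from the same cluster as AT4G12490, lay between 4.87 and 7.31 on all arrays and was not tested.

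In the anchored class AT3G22620 had values of both signs, as AT2G48130 did. Its zinc difference was 0.60 ± 0.14 in wild type (adjusted p = 0.107) and -0.59 ± 0.14 in dez (adjusted p = 0.00831), and its interaction was -1.19 ± 0.20 (adjusted p = 0.00221). Under poly-A spike scaling the zinc difference in dez was -0.18 ± 0.36 and did not pass (adjusted p = 0.731). The call in dez was lost without dez control replicate 2 (adjusted p = 0.0686) or dez high-Zn replicate 1 (0.0789).

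On control medium 5 of the 19 were higher in dez and 3 were lower, against 9.67% of all tested probe sets (4.24% higher and 5.43% lower), and the median was 0.13 against 0.03 over all. AT5G01870 had the smallest adjusted p, with 136.6 and 122.5 in wild type and 355.8 and 339.9 in dez, a difference of 1.32 ± 0.14 (adjusted p = 4.30e-04). AT4G22490 was higher by 1.22 ± 0.24 (adjusted p = 0.01), a call lost without wild-type control replicate 2 (0.0667) or dez control replicate 1 (0.0832). AT5G05960 was higher by 0.78 ± 0.11. AT1G62510 was the lowest, -1.35 ± 0.20 (adjusted p = 0.00249), with 120.7 and 162.5 in wild type and 53.1 and 38.4 in dez. Under poly-A spike scaling AT1G62510 was -0.87 ± 0.36 and lost its call (adjusted p = 0.21), and 5 family genes were called higher and 0 lower. The 8 calls became 5 with wild-type control replicate 1 left out, 3 with dez control replicate 1 left out and 4 with dez control replicate 2 left out.

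On high zinc 6 of the 19 were higher in dez and 7 were lower, against 43.1% of all tested probe sets (22.3% higher and 20.7% lower). For the interaction 3 were positive and 7 negative, against 19.7% (9.08% positive and 10.6% negative). Medians were -0.12 and -0.25. AT5G01870 was higher in dez on high zinc by 2.18 ± 0.14, and AT2G10940 differed by -2.23 ± 0.10.

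The 22 untested family genes had intensities between 3.51 and 42.4. AT5G55450, a relative of DIR1 and AT5G48490 singled out after its values were seen, reached 39.3 and 42.4 in dez on high zinc against 22.3 and 20.7 in dez on control medium and 10.6 to 15.2 in wild type. The other 21 untested genes did not exceed 22.3 on any array. DIR1, AZI1 and EARLI1 themselves were not analysed here.

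Values of suberin genes stand here beside those of AT3G58550, AT2G18370 and AT2G48130. Of the 20 listed suberin genes 4 had a probe set of their own, and this list holds genes already known to have changed in these arrays, so its direction is no independent evidence. All 4 rose with zinc in wild type, against 0.469% of all tested probe sets called higher. AT5G63560 (FACT), which makes alkyl caffeates, had a zinc change of 1.86 ± 0.15, and the GDSL-type lipase genes AT5G37690 and AT1G74460 had changes of 1.35 ± 0.14 and 1.25 ± 0.13. AT2G23540, of the same lipase family, changed by 1.43 ± 0.21, a call lost without wild-type control replicate 1 (adjusted p = 0.0588) or wild-type high-Zn replicate 1 (0.0604). In dez the zinc changes were 0.48 ± 0.15 for FACT, -0.86 ± 0.13 for AT1G74460 and -0.97 ± 0.21 for AT2G23540, each past the threshold. With arrays scaled to the poly-A spikes, the wild-type calls of AT5G37690 (adjusted p = 0.0542) and AT1G74460 (0.126) were lost, while those of FACT and AT2G23540 stayed. The 2 values that lost their calls were not smaller, 1.43 ± 0.36 and 1.33 ± 0.36, but their SEs were larger. The same scaling lost all 3 calls in dez, FACT at 0.105, AT1G74460 at 0.413 and AT2G23540 at 0.328. There FACT was larger, 0.89 ± 0.36, and the other 2 were smaller in size, -0.45 ± 0.36 and -0.56 ± 0.36. The call of FACT was lost without dez control replicate 2 (0.254) or dez high-Zn replicate 1 (0.269), and that of AT2G23540 without dez high-Zn replicate 1 (0.0557). On control medium 3 of the 4 were higher in dez, by 1.04 to 1.37, against 4.24% of all tested probe sets, while FACT had a difference of 0.33 ± 0.15 (adjusted p = 0.219).

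**Figure D4:**
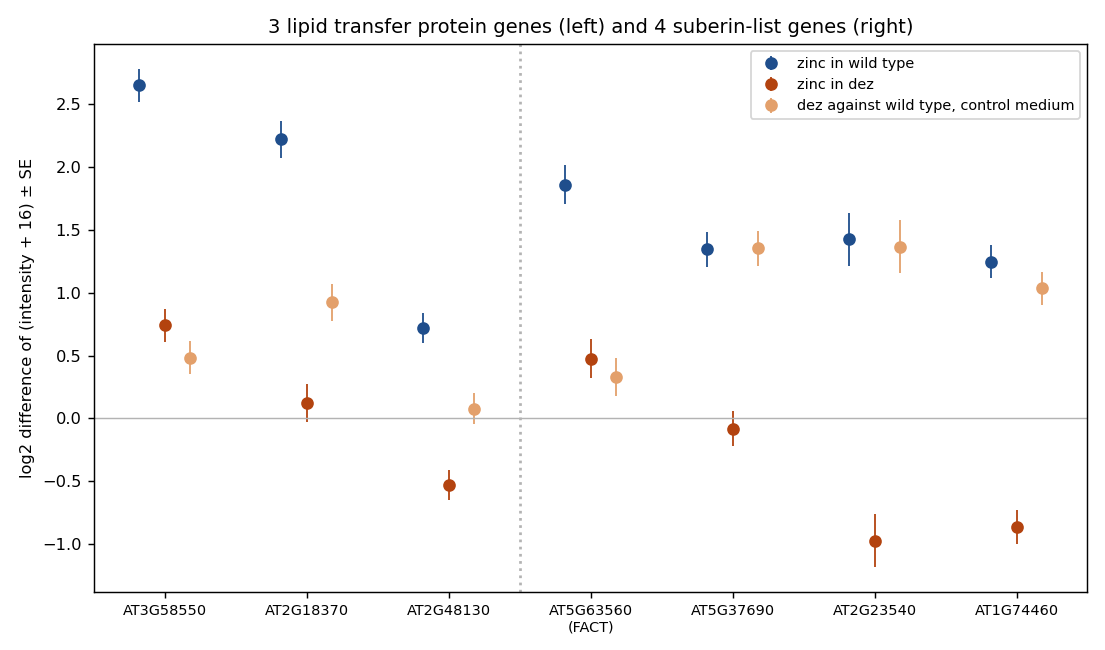
Log2 differences of (intensity + 16) with SE bars for AT3G58550, AT2G18370 and AT2G48130 (left) and the 4 suberin-list genes with a probe set (right). Blue is zinc in wild type, dark orange zinc in dez and light orange dez against wild type on control medium; in all 7 the blue point lies above the dark orange one.

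On the defence side 1 of 19 listed genes had a probe set, AT5G52810, known as SARD4 of pipecolic acid synthesis. It rose with zinc in dez by 1.61 ± 0.15 (adjusted p = 2.53e-05), from 52.3 and 47.4 to 152.6 and 222.1, and had a change of 0.15 ± 0.15 in wild type. The 1 listed cutin and wax gene with a probe set, WSD1, lay below the filter.

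The genes whose profile over the 8 arrays was most like that of each member were found by Pearson r on the log2 scale among 7216 other genes. These r values are descriptions, since 8 arrays in 4 groups of 2 give few independent points. FACT was nearest to AT3G58550 (r = 0.992), and AT2G18370 followed (r = 0.949). For AT2G18370 the order was AT3G58550 (r = 0.949) and FACT (r = 0.935). AT2G48130 was nearest to AT4G20310 and AT4G10300 (r = 0.982 and 0.978). AT4G12490 was nearest to AT1G80130 (r = 0.996), the pectin methylesterase gene ATPMEPCRB (r = 0.995) and the chitinase family gene AT2G43620 (r = 0.995). AT4G12500 was nearest to AT1G74010 (r = 0.999), followed by AT3G47540 and AT4G01700, both of the chitinase family (r = 0.997 each). AT4G22470 was nearest to AT1G19380 and AT2G42360 (r = 0.997 each), followed by AT4G12500 (r = 0.996). AT2G42360 and AT4G12500 had means below the filter level of 22.5 in every group but dez on high zinc. Both were therefore searched only through that group. AT5G48490 was nearest to AT1G51400, a small photosystem II protein (r = 0.995), and HPR, the photorespiratory hydroxypyruvate reductase (r = 0.994). HPR went from 447.6 ± 105.9 (SD, n = 2) to 588.1 ± 109.8 with zinc in wild type and from 400.4 ± 81.3 to 167.9 ± 3.23 in dez.

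Several control and marker signals moved with the same groups, and their part in the results was not tested. Signal from 25S ribosomal RNA, in log2 intensity, had means of 5.98 ± 0.69 and 6.56 ± 0.07 (SD, n = 2) in wild type with control and high zinc, and of 8.18 ± 0.48 and 9.63 ± 1.19 in dez. For actin and GAPDH, the log2 excess of 3' over 5' probe sets, which reads RNA integrity and labelling, was 1.78 ± 0.30, 1.59 ± 0.11, 1.46 ± 0.15 and 1.20 ± 0.01 in that order. With it as a covariate the zinc differences in dez were 4.16 for AT4G12490, 3.99 for AT4G22470 and -3.25 for AT5G48490, against 3.84, 3.68 and -2.73 without it. Covariate values of the other members are not given here. The share of all tested probe sets called went from 34.2% to 26% for zinc in dez. For dez on control medium it went from 9.67% to 5.16%, and for dez on high zinc from 43.1% to 25.5%. Of 24 listed marker genes of root, epidermis, residual seed and dark-grown seedlings 5 had a probe set, and none was an epidermis gene. Of these 5, the root gene EXPA7 and the seed gene AT3G01570 lay below the filter. EXPA7 had intensities of 10.2 and 8.80 in the dez controls and 14.2 and 28.2 in dez with high zinc, and AT3G01570 lay between 10.4 and 16.1 on all arrays. PORB, a protochlorophyllide oxidoreductase, was present in every group and fell with zinc in dez by 1.29 on the log2 scale (adjusted p = 8.01e-05). PORA, the other gene listed for dark-grown seedlings, had no probe set of its own. The root gene BGLU23 (AT3G09260) had zinc differences of -0.29 ± 0.10 in wild type (adjusted p = 0.283) and -0.28 ± 0.10 in dez (adjusted p = 0.0492). The oleosin gene AT5G51210, of seed origin, changed by -1.13 ± 0.22 in dez (adjusted p = 0.00255).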

How the data were processed

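Labelled RNA of 8 samples was read on ATH1 arrays. The deposited values are linear intensity, 1 value for each probe set on each array, and MAS5 appears in the submitters' processing notes without a role or a version. How the authors scaled them is not given in the sources used for this work. Array medians lay between 34.7 and 37.2.

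Control probe sets (64) were left out, log2(intensity + 16) was taken, and probe sets in the upper 60% of mean intensity were kept (13648). A model with 4 group means was fitted to the 8 arrays in limma 3.58.1 (R 4.3.3) with a trended eBayes, which gave 4 residual degrees of freedom and 6.27 prior ones. Two-sided p-values were adjusted by Benjamini-Hochberg over all probe sets per comparison, with a threshold of 0.05. The fit was tested on simulated data. A gene is its brightest probe set among those naming it alone; 13436 of 13513 single-gene probe sets matched RefSeq (TAIR10.1). The family list was written from knowledge of the family, and no table used here gives its members' descriptions. The members and lists were chosen with earlier results of these data known. Other genes were named as the 5 smallest adjusted p of the family per comparison, relatives of the members, and up to 3 per other list and zinc comparison. No label says that replicate numbers pair samples, and the block was an alternative only. Other alternatives changed the normalization (quantile, median, poly-A spikes), pseudocount, filter, eBayes settings, 3'-5' covariate, arrays and threshold. No sequences were used, and RefSeq gene coordinates served only to count the protein-coding genes between neighbours.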

Additional observations from a re-analysis of the deposited data

Results flagged for a closer look

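AT2G48130 and AT5G48490 had every high-zinc array above both control arrays in wild type and below both in dez. Their interactions were -1.25 ± 0.17 and -3.59 ± 0.38 on the log2 scale (SE), and the difference was not tested, since the genes were chosen for it.

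For genes outside the 7, limma's interaction test found zinc effects that differed between the genotypes. Positive interactions (a larger value in dez) were 1.25 for AT1G62790, 1.12 for AT3G18280, 0.85 for AT5G01870 and 1.46 for AT5G52810, with adjusted p = 2.50e-04, 0.00127, 0.0126 and 9.62e-04. That of AT5G01870 was lost without dez control replicate 2 (adjusted p = 0.054) or dez high-Zn replicate 1 (0.0592). Negative ones in the family were -2.12 for AT2G10940 (adjusted p = 1.43e-05), -2.10 for AT1G62500, -1.30 for AT4G22490, -1.19 for AT3G22620, -0.94 for AT5G13900 and -0.75 for AT2G45180. The remaining negative interaction in the family, that of AT3G53980, was -1.22 (adjusted p = 0.0201), and this gene was named after its values were seen. That of AT4G22490 (adjusted p = 0.0202) was lost without wild-type control replicate 2 (0.0643), dez control replicate 1 (0.0797) or dez high-Zn replicate 2 (0.062). In the suberin list they were -1.39 for AT5G63560 (FACT), -1.43 for AT5G37690, -2.11 for AT1G74460 and -2.40 for AT2G23540. With arrays scaled to poly-A spikes, the interactions of AT2G10940, AT1G62500, AT1G74460, AT2G23540 and AT5G52810 stayed past the threshold. Those of the other genes tested under it, which leaves out AT3G53980, did not, and SEs were larger throughout. Among the lost ones AT1G62790 (1.58 ± 0.50), AT3G18280 (1.44 ± 0.51) and AT5G01870 (1.18 ± 0.50) had larger values than in the main fit. The values of the other lost ones, all negative, were smaller in size.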

How the results depend on the processing

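Of 693 recomputed log2 differences of the 7 genes 9 changed sign, all in comparisons where the main value was at most 0.17 in size. Of 1767 recomputed values of 18 other genes, 79 lost a call, 6 gained one and 1 turned: AT2G45180 on control medium was 0.012 under poly-A spike scaling against -0.47. The mean log2 spike signal was 7.67 ± 0.34 and 7.58 ± 0.40 (SD, n = 2) in wild type with control and high zinc. In dez it was 7.18 ± 0.14 and 6.77 ± 0.23. The scaling subtracts this signal, which shifts all differences of a comparison alike, and why the spike signal differed was not tested. Under that scaling the median of all probe sets was 0.42 for zinc in dez, 0.51 and 0.84 for dez on control medium and high zinc, and 0.35 for the interaction, against 0.01, 0.03, 0.02 and 0.02. The family counts (higher and lower) were then 0 for zinc in wild type, 5 (3 and 2) for zinc in dez, 5 (5 and 0) and 9 (8 and 1) for dez on control medium and high zinc, and 2 (0 and 2) for the interaction, against 1, 11 (5 and 6), 8 (5 and 3), 13 (6 and 7) and 10 (3 and 7). The shares of all probe sets called were 0.125%, 8.68%, 1.3%, 56.6% and 1.97% in that order, so that on high zinc the family's share lay below that of all probe sets, where it lay above it in the deposited scaling. For zinc in wild type the family count was 0 with the upper 40% filter, the 3'-5' covariate, only the arrays compared, adjusted p under 0.01 or a 2-fold change, and 0 to 1 with 1 array left out. For zinc in dez it was 6 with a 2-fold change and 7 to 12 with 1 array left out, and for dez on control medium 3 at adjusted p under 0.01 or with a 2-fold change and 3 to 9 with 1 array left out. With AT4G12500 left untested, 1 of the other 6 members passed on control medium with a 2-fold change, against 3. With the replicate number as a block the family count for zinc in wild type was 2, and the other family counts were equal. In that fit 2 of the same 6 members passed on control medium, AT3G58550 being lost at adjusted p = 0.0574. Deviations of same-numbered replicates correlated between -0.36 and 0.37 over the 6 pairs of groups, so the numbers were not taken as pairs.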
